A study of Mus musculus with 8 samples.

Results

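The genes described here encode channels and regulators through which calcium and metabolites cross the mitochondrial membranes: the calcium uniporter genes Mcu, Smdt1, Micu2 and Micu3, the inner membrane gene Letm1, and the voltage-dependent anion channel genes Vdac1, Vdac2 and Vdac3. They were taken by gene name from a table of 54532 genes, and all 8 were found there and passed the expression filter of a mean of at least 1 FPKM (fragments scaled to gene length and to the size of the library). The RNA came from mouse heart tissue, all from littermates, taken on postnatal day 4. The cHET hearts (4 libraries) had the genotype Mrps5 fl/+; Myh6-Cre, in which Cre under the promoter of the cardiomyocyte gene Myh6 removes 1 allele of Mrps5, a gene of the small mitoribosomal subunit, late in embryonic life. The control hearts (4 libraries) carried the same floxed allele, Mrps5 fl/+, and no Cre. Hearts with Cre alone were not among the groups, which means that Cre itself and the lost allele cannot be told apart. Non-myocytes of heart tissue keep both alleles.

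The uniporter is the main route by which calcium enters the mitochondrial matrix. MCU forms the pore, the small protein EMRE (encoded by Smdt1) is needed for it to conduct in animal cells, and the EF-hand proteins MICU2 and MICU3 help to sense calcium outside the pore and to set when it opens. LETM1 is an inner membrane protein implicated in cation and proton exchange and in keeping matrix volume. The VDAC proteins are barrel-shaped pores of the outer membrane through which ATP, ADP, metabolites and calcium pass, and VDAC1 also sits at contacts with the endoplasmic reticulum. In beating cardiomyocytes, matrix calcium is known to stimulate dehydrogenases that feed the respiratory chain.

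Vdac3 has a near-identical copy in the table, which bears on how its reads can be counted. Vdac3-ps1 (ENSMUSG00000075053, chromosome 13, 18030741 to 18031593, minus strand), listed as an unprocessed pseudogene, aligned to the Vdac3 transcript over 853 bases, of which 849 were identical (99.5%), with an uninterrupted identical run of 408 bases. The 4 differences, counted from the 5′ end of the Vdac3 transcript with the Vdac3 base first, were T153C, T372C, G539A and T580G. The expressed relatives were far more distant from Vdac3: Vdac2 was identical at 73.7% of 845 aligned bases with no identical run above 15, and Vdac1 at 68.5% of 813 with none above 10. The same 90-base stretch of the 4 transcripts (GENCODE M21, written 5′ to 3′) is shown because it holds 1 of these 4 differences, and capitals mark bases that differ from Vdac3.
Vdac3: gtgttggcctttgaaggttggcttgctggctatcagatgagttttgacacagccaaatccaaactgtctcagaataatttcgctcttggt
Vdac3-ps1: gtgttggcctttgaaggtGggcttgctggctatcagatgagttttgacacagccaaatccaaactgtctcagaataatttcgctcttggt
Vdac2: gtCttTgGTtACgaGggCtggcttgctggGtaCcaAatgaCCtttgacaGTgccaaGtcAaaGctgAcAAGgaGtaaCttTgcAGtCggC
Vdac1: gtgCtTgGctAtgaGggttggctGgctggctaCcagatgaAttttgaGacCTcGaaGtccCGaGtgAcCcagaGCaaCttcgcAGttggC
Vdac3-ps1 differed from Vdac3 at 1 base of this stretch (T19G, counted from its first base), Vdac2 at 29 and Vdac1 at 24.

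The start regions of Mcu and Smdt1 are shown because one encodes the pore and the other the subunit it needs, and their transcript levels differed widely. Each is 250 bases before to 50 bases after the RefSeq start (GRCm38.p6), and capitals mark matches, on either strand, to 6 motifs that were searched: NRF1, YY1, ETS (CCGGAAG), CRE (TGACGTCA), ERR (TNAAGGTCA) and the GC box (GGGCGG).
Mcu, chr10:59616643-59616942, minus strand: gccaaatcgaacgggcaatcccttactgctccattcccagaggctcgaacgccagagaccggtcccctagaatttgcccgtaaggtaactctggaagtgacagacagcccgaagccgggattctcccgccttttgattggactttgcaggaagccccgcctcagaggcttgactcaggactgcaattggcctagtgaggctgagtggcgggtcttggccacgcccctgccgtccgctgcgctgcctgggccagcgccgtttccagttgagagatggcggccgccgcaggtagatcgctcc
Smdt1, chr15:82345796-82346095, plus strand: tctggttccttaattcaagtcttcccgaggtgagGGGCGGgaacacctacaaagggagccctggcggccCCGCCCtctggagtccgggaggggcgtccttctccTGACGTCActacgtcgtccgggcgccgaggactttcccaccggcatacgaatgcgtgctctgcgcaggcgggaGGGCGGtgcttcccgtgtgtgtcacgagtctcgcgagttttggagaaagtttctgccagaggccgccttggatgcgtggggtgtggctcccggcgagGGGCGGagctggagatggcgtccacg
The Smdt1 start used by RefSeq lies inside the longer Smdt1 gene of the table. The Smdt1 window held 1 CRE, present in 1.79% of the 32851 RefSeq windows of this length, and 4 GC boxes, a motif present in 35.7%. None of the 6 motifs was in the Mcu window. Start regions were found for 5 of the 8 genes, in 6 windows. The YY1 motif was in that of Micu2 (0.633% of all windows), the ETS motif in 1 of the 2 of Vdac1 (8.86%), and GC boxes in those of Letm1, Micu2, Smdt1 and Vdac1. NRF1 (4.60% of all windows) and ERR (1.28%) were in none of the 6. A match is a description of these letters and no evidence of binding.

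None of the 8 transcripts passed the test between cHET and control hearts. By limma on log2(FPKM + 1), 0 of 8 had a Benjamini-Hochberg adjusted p under 0.05, against 0.0230% of the 13029 genes tested (3 higher, 0 lower). The count was also 0 of 8 at an unadjusted p under 0.05, against 8.95% of all genes, and 0 of 8 by limma voom on reads rebuilt from the FPKM, adjusted or not. For 0 of 8 were the 2 groups without overlap, against 4.74% of all genes (2.74% higher and 2.00% lower in cHET). The log2 fold changes ran from -0.17 for Micu3 to 0.17 for Letm1, with 5 above 0 and 3 below, against 52.1% of all genes above 0. Their median was 0.088, against 0.0086 for all genes tested, and the median of their sizes was 0.10, against 0.11. On this scale the 95% limma intervals of all 8 lay between 0.735-fold (Micu3) and 1.33-fold (Letm1). The intervals understate the change of genes at a few FPKM, such as Mcu and Micu3. In heart tissue, fewer cells of a type and less RNA per cell cannot be told apart. Per the series' design text, replicates were biological, 4 to a group.

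**Figure D1:**
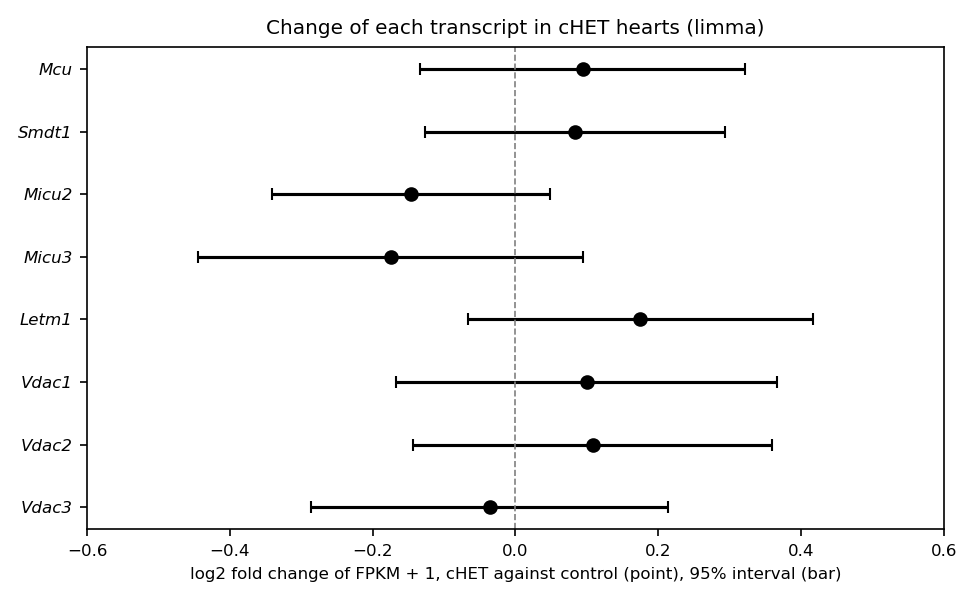
Log2 fold change of FPKM + 1 in cHET against control hearts for each transcript (point) with its 95% limma interval (bar, n = 4 libraries per group). All 8 intervals cross 0, from Micu3 at -0.17 to Letm1 at 0.17.

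Library facts that touch these values are few. Rebuilt reads came to 15490622 to 19234777 per library. Sex was read from which of Xist and Ddx3y was higher. By this cHET 1, control 1 and control 3 were male and the other libraries female, so the groups differed in sex. In a limma fit with sex as a covariate 0 of the 8 passed, and over all genes 2 higher and 0 lower. Control 1 and control 2 stood apart: their FPKM values summed to 450265 and 467217, against 353291 to 392047 in the other 6 libraries, and Ucp1, a brown fat gene, stood at 17.8 and 16.7 FPKM there, at 6.56 in cHET 2 and no higher than 1.62 elsewhere. All 8 brown fat markers were listed above 0 in at least 1 library. Their summed level was 183 to 205 FPKM in cHET and 162 to 231 in control libraries. Most of it was Fabp4, at 139 to 168 FPKM in cHET and 132 to 166 in control hearts, a gene that endothelium also expresses. Of the 5 tested, Ucp1 (log2 fold change -0.99) and Adipoq (-0.83) were below 0, with limma adjusted p-values of 0.773 and 0.702. The other 3 were above 0. Cardiomyocyte markers summed to 17409 to 21184 FPKM in cHET and 18352 to 21289 in control libraries, with Actc1 the highest, and all 10 were above the filter, as the label of heart tissue asks. The targeted gene Mrps5 stood at 6.84, 7.12, 6.995 and 7.68 FPKM in cHET 1 to 4, against 11.6, 6.27, 10.1 and 5.15 in control 1 to 4 (log2 fold change -0.13, limma adjusted p = 0.849), a difference that did not pass the test. The libraries labelled control 2 and control 4 had less Mrps5 than every cHET library. Which exon Cre removes is not in the labels, so a value over the whole gene need not show the deletion, and it did not bear out the labels here.

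The pore gene Mcu (ENSMUSG00000009647, chromosome 10, 59446984 to 59616692, minus strand) was among the lowest of the 8. It stood at 4.02, 3.75, 3.37 and 4.12 FPKM in cHET 1 to 4, against 2.81, 3.83, 3.71 and 3.74 in control 1 to 4. Control 1 was the low library, and the other 3 control libraries lay inside the cHET range. The means were 3.82 ± 0.337 FPKM in cHET and 3.52 ± 0.476 in control (SD, n = 4; log2 fold change 0.094, SE 0.10, limma adjusted p = 0.769). At 303 to 519 reads per library, the 95% exact Poisson interval of control 1 was 2.50 to 3.15 FPKM, below the values of the other 7 libraries, and it covers counting error only. The log2 fold change was 0.014 without control 1 and 0.024 without control 1 and control 2.

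Smdt1, the EMRE gene (ENSMUSG00000022452, chromosome 15, 82338959 to 82349091, plus strand), was the most abundant uniporter transcript per length and varied little. It stood at 92.6, 88.5, 89.0 and 92.3 FPKM in cHET 1 to 4, against 86.7, 89.1, 91.2 and 75.8 in control 1 to 4. Control 4 was the low library, and the groups overlapped. The means were 90.6 ± 2.15 FPKM in cHET and 85.7 ± 6.86 in control (SD, n = 4; log2 fold change 0.083, SE 0.093, limma adjusted p = 0.774). The log2 fold change was 0.026 without control 4 and 0.12 without control 1 and control 2. Only 8.90% of all genes tested varied less within groups on the log2 scale. The annotated Smdt1 gene overlaps Pheta2 on the same strand over 6785 bases, and Pheta2 did not exceed 1.80 FPKM.

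The gatekeeper genes Micu2 and Micu3 had the lowest fold changes of the 8. Micu2 (ENSMUSG00000021973, chromosome 14, 57916261 to 57999262, minus strand) stood at 23.9, 25.6, 25.4 and 24.2 FPKM in cHET 1 to 4, against 27.5, 24.4, 27.8 and 30.7 in control 1 to 4. All 4 cHET libraries lay below control 1, 3 and 4, while control 2 lay inside the cHET range. The means were 24.8 ± 0.825 FPKM in cHET and 27.6 ± 2.57 in control (SD, n = 4; log2 fold change -0.15, SE 0.087, limma adjusted p = 0.643), a difference that did not pass the test. The log2 fold change was -0.20 without control 2 (limma unadjusted p = 0.0322), -0.23 without control 1 and control 2 (unadjusted p = 0.0240) and -0.17 with library weights (unadjusted p = 0.0310). Adjusted over all genes, these limma p-values were 0.343 to 0.514.

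Micu3 (ENSMUSG00000039478, chromosome 8, 40307458 to 40386308, plus strand), the MICU family member known mainly from brain, was the lowest of the 8. It stood at 1.75, 1.75, 1.51 and 1.85 FPKM in cHET 1 to 4, against 2.38, 2.60, 1.65 and 1.74 in control 1 to 4. Control 1 and control 2 were high, and control 3 and control 4 lay inside the cHET range. The means were 1.72 ± 0.147 FPKM in cHET and 2.09 ± 0.468 in control (SD, n = 4; log2 fold change -0.17, SE 0.12, limma adjusted p = 0.670). The high libraries were the same 2 that had 17.8 and 16.7 FPKM of Ucp1 and the highest FPKM sums, and without them the log2 fold change was 0.011. Whether brown fat RNA contributes to Micu3 was not tested. With 149 to 258 reads per library, counting error alone was 12.4 to 16.4% of the value at 95%.

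Letm1 (ENSMUSG00000005299, chromosome 5, 33739673 to 33782817, minus strand) had the highest fold change of the 8, which did not pass the test. It stood at 7.98, 8.91, 10.5 and 10.6 FPKM in cHET 1 to 4, against 7.25, 8.31, 8.33 and 9.19 in control 1 to 4. The libraries cHET 3 and cHET 4 lay above every control library, and cHET 1 lay within the control range. The means were 9.49 ± 1.27 FPKM in cHET and 8.27 ± 0.795 in control (SD, n = 4; log2 fold change 0.17, SE 0.11, limma adjusted p = 0.650). Leaving out control 1 and control 2 gave 0.097, and leaving out cHET 1 gave 0.25 (limma unadjusted p = 0.0432, adjusted p = 0.523). Its gene body holds 2 processed pseudogenes on the other strand; whether counting used strand is not given in the sources used here.

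Vdac1 (ENSMUSG00000020402, chromosome 11, 52360860 to 52389397, plus strand) was the highest of the 8, at rank 170 of the 13029 genes tested by mean FPKM. It stood at 258, 284, 326 and 289 FPKM in cHET 1 to 4, against 254, 247, 295 and 282 in control 1 to 4. The library cHET 3 was the highest and control 1 and control 2 were the lowest, with overlap between groups. The means were 289 ± 28.0 FPKM in cHET and 270 ± 22.4 in control (SD, n = 4; log2 fold change 0.10, SE 0.12, limma adjusted p = 0.785). Without cHET 3 it was 0.041, and with control 3 and control 4 as the only controls -0.00047.

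Vdac2 (ENSMUSG00000021771, chromosome 14, 21825238 to 21845879, plus strand), whose product is also known for holding the apoptosis protein BAK at the outer membrane, stood at 129, 125, 146 and 144 FPKM in cHET 1 to 4, against 129, 143, 118 and 114 in control 1 to 4. Every cHET library lay above control 3 and control 4, and control 2 lay near the top of the cHET range. The means were 136 ± 10.4 FPKM in cHET and 126 ± 13.1 in control (SD, n = 4; log2 fold change 0.11, SE 0.11, limma adjusted p = 0.760). Without control 1 and control 2 the log2 fold change was 0.22 (limma unadjusted p = 0.0558), and without control 4 it was 0.062.

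Vdac3 (ENSMUSG00000008892, chromosome 8, 22577075 to 22593813, minus strand) was nearly level over the cHET libraries and spread over the control libraries. It stood at 46.4, 46.3, 47.3 and 47.8 FPKM in cHET 1 to 4, against 51.5, 57.4, 43.7 and 41.6 in control 1 to 4. All 4 cHET libraries lay between the 2 high control libraries, control 1 and 2, and the 2 low ones, control 3 and 4. The means were 46.9 ± 0.708 FPKM in cHET and 48.6 ± 7.26 in control (SD, n = 4; log2 fold change -0.036, SE 0.11, limma adjusted p = 0.923). The order of the control libraries is that of their FPKM sums. The direction turned with the scaling: after rescaling every library to the same sum (TPM), which moved the median of all genes to 0.10, the log2 fold change of Vdac3 was 0.062, below that median.

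The pseudogene Vdac3-ps1 held a steady part of the reads given to the pair. It stood at 51.4, 54.5, 59.3 and 57.5 FPKM in cHET 1 to 4, against 61.7, 66.3, 58.7 and 54.3 in control 1 to 4 (log2 fold change -0.11, limma adjusted p = 0.721). Its reads were 14.9 to 16.5% of those of Vdac3 and Vdac3-ps1 together in cHET libraries and 15.4 to 17.4% in control libraries. With 4 differing bases in 853, the authors' counting could split or drop reads of the coding part, and how reads with several matches were handled is not given in the sources used here. The level of Vdac3 is therefore uncertain.

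**Figure D2:**
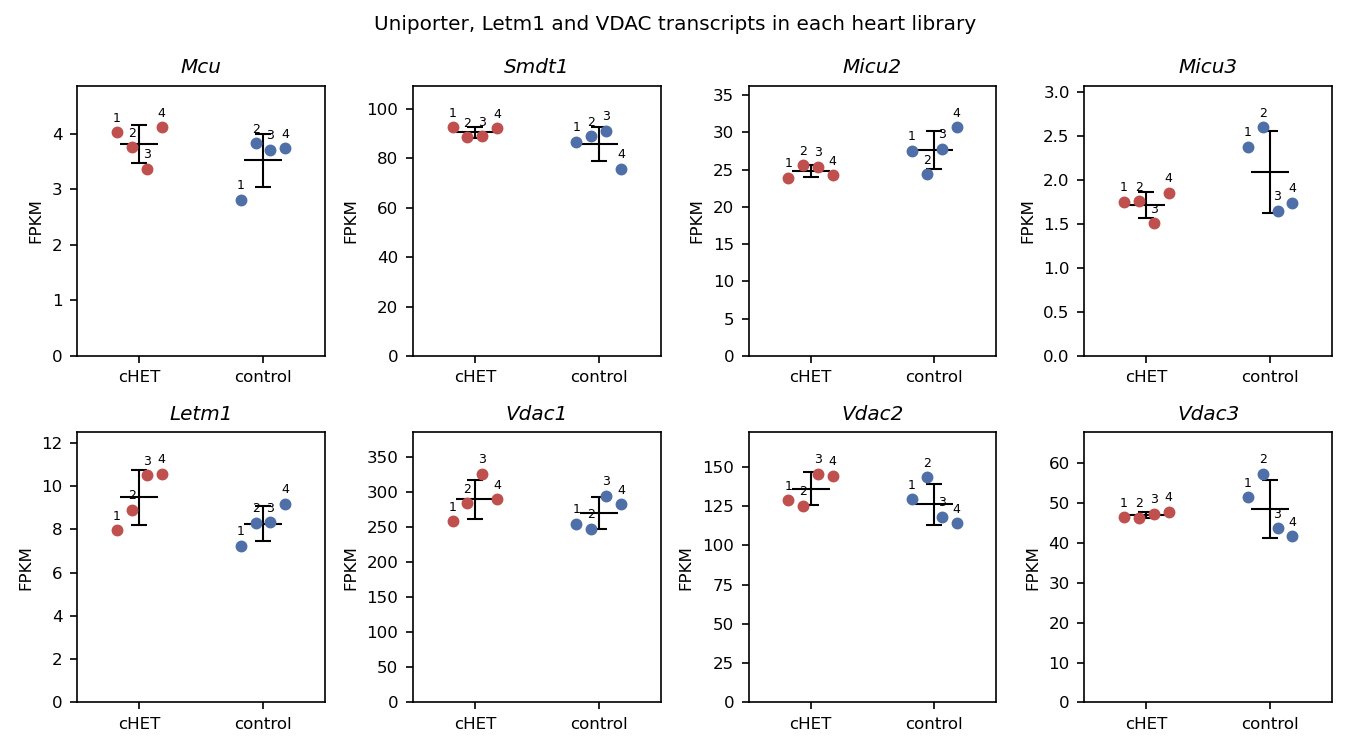
FPKM of the 8 transcripts in each library (points, labelled with the replicate number), cHET left of control, with the mean and SD of each group (bars, n = 4). The groups overlap in every panel; control 1 and control 2 are the high control libraries for Micu3 (2.38 and 2.60 FPKM) and Vdac3 (51.5 and 57.4 FPKM).

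Per length of the gene in the table, the levels fell in one order in all 8 libraries: Vdac1, Vdac2, Smdt1, Vdac3, Micu2, Letm1, Mcu and Micu3, with means over the 8 libraries of 279, 131, 88.1, 47.8, 26.2, 8.88, 3.67 and 1.90 FPKM. No 2 neighbours in this order overlapped in their ranges. The closest were Mcu, at 2.81 FPKM or more, and Micu3, at 2.60 or less. The gene lengths behind the FPKM exceed those of the longest coding transcripts, and for Vdac3 the length is 5420 bases, 3.81 times its longest coding transcript of 1423 bases. For Vdac1 the factor was 1.30, for Vdac2 2.44 and for Smdt1 2.10. Rescaled to the longest coding transcript, a choice made after seeing the data, the mean levels were 362 for Vdac1, 320 for Vdac2, 185 for Smdt1, 182 for Vdac3, 34.7 for Micu2, 16.3 for Letm1, 8.86 for Mcu and 4.70 for Micu3. The order of the means held, but Vdac1 (320 to 422) and Vdac2 (278 to 355) then overlapped, as did Smdt1 (159 to 194) and Vdac3 (159 to 218).

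**Figure D3:**
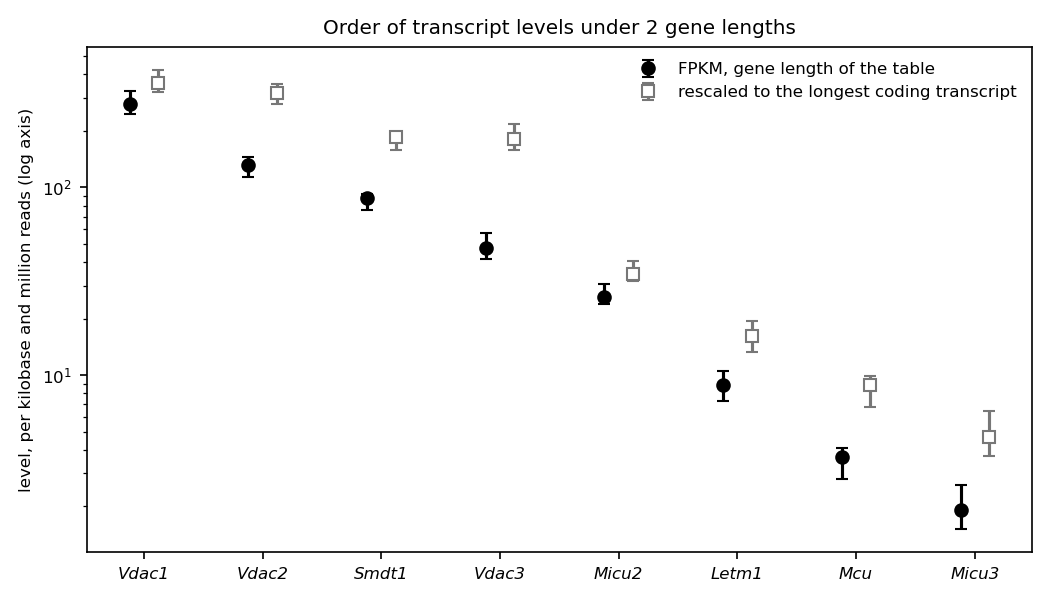
Mean level over the 8 libraries (points) with the lowest and highest library (bars), on a log axis, per gene length of the table (filled) and per longest coding transcript (open). The transcripts run from Vdac1 at 279 FPKM to Micu3 at 1.90 FPKM; Vdac3 moves most between the 2 lengths, to 182.

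Within the uniporter, transcripts of the regulators were set against that of the pore in each library, as a description with no test. The Smdt1 to Mcu ratio of FPKM was 23.0, 23.6, 26.4 and 22.4 in cHET 1 to 4, against 30.8, 23.3, 24.6 and 20.2 in control 1 to 4 (mean 23.9 ± 1.78 in cHET and 24.7 ± 4.45 in control, SD, n = 4). The Micu2 to Mcu ratio was 5.95, 6.81, 7.54 and 5.88 in cHET 1 to 4, against 9.78, 6.37, 7.49 and 8.20 in control 1 to 4 (mean 6.54 ± 0.789 in cHET and 7.96 ± 1.43 in control). Both sets overlapped between groups, and control 1, where Mcu was low, had the highest value of each. The Micu3 to Mcu ratio was 0.435, 0.467, 0.448 and 0.450 in cHET 1 to 4, against 0.845, 0.678, 0.444 and 0.464 in control 1 to 4. The 95% Poisson half-widths in cHET were 13.6 to 16.4% of the value for Micu3 and 8.70 to 10.3% for Mcu. The cHET ratios thus lay closer together than these counts can resolve. Control 3 and control 4 lay within the cHET range, and control 1 and control 2, the libraries rich in Ucp1, lay above it. These ratios depend on the gene lengths used.

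The 3 VDAC transcripts together came to 472 ± 36.8 FPKM in cHET and 444 ± 9.74 in control (SD, n = 4). Of this sum Vdac1 made up 59.6, 62.3, 62.8 and 60.1% in cHET 1 to 4, against 58.5, 55.2, 64.5 and 64.5% in control 1 to 4. Vdac2 made up 29.7, 27.5, 28.1 and 30.0% in cHET 1 to 4, against 29.7, 32.0, 25.9 and 26.0% in control 1 to 4. Vdac3 made up 10.7, 10.2, 9.11 and 9.93% in cHET 1 to 4, against 11.8, 12.8, 9.57 and 9.50% in control 1 to 4. The control libraries thus fell on both sides of the cHET range for Vdac1: control 1 and 2 had less Vdac1, and control 3 and 4 more. Control 1 and 2 also had more Vdac3 than any cHET library. With all 4 control libraries the Vdac1 share was 61.2 ± 1.61% in cHET and 60.7 ± 4.61% in control (SD, n = 4). With control 3 and 4 alone the difference, cHET minus control, was -3.28 percentage points for Vdac1 and 2.83 for Vdac2.

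**Figure D4:**
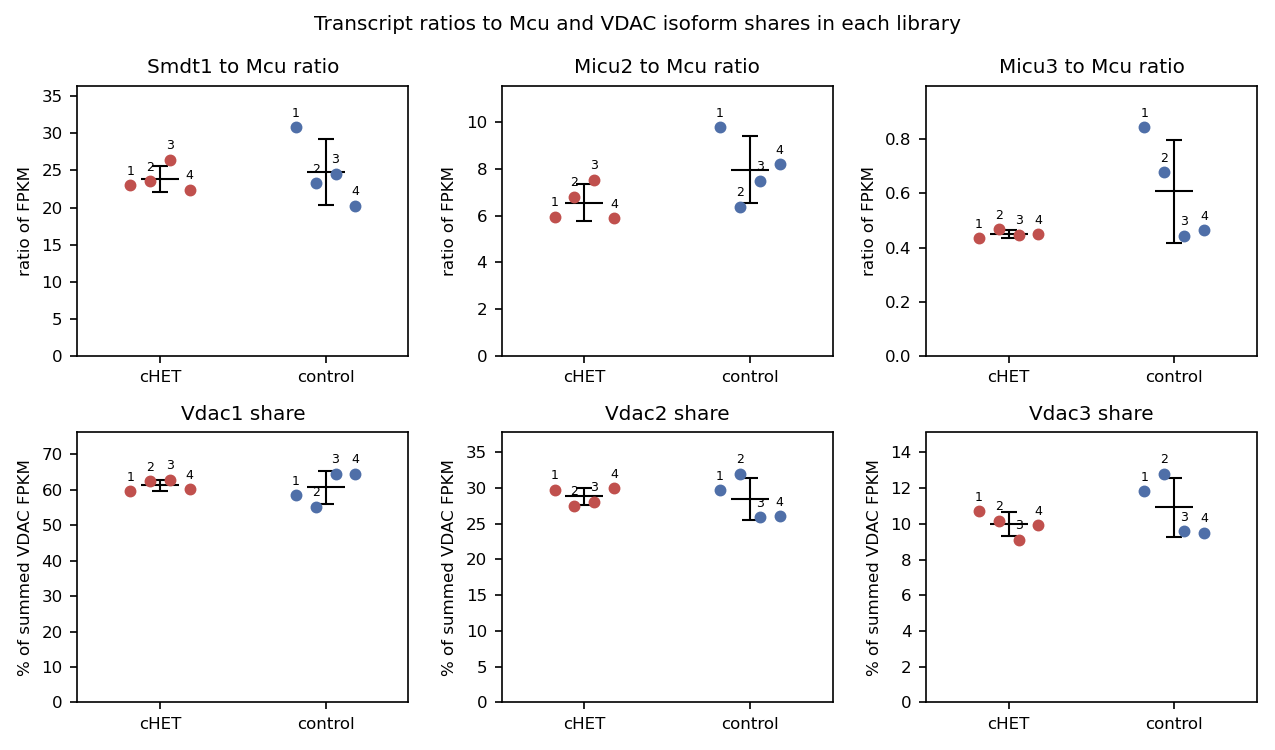
Ratios of FPKM to Mcu (top) and the share of each isoform in the summed VDAC FPKM (bottom) in each library (points, labelled with the replicate number), cHET left of control, with group mean and SD (bars, n = 4). The Micu3 to Mcu ratio is 0.435 to 0.467 in cHET and reaches 0.845 in control 1; the Vdac1 share of 59.6 to 62.8% in cHET lies between the control 1 and 2 values and the control 3 and 4 values.

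Other genes of mitochondrial calcium handling also gave 0 calls. Of 18 such genes 16 were tested, 11 with a log2 fold change above 0 and 5 below (median 0.022), and 0 passed in either direction by limma or by voom, adjusted or at an unadjusted p under 0.05. Mcub, whose product is known to dampen the pore, was too low to be tested, at 0.976, 1.07, 0.803 and 0.743 FPKM in cHET 1 to 4, against 0.830, 1.503, 0.866 and 0.880 in control 1 to 4. These values rest on 17 to 32 reads per library, with 95% Poisson half-widths of 36.4 to 50.9% of the value. The genes with the smallest p were Slc25a23, a carrier with EF-hands (21.7 ± 1.38 FPKM in cHET and 18.6 ± 2.90 in control; log2 fold change 0.22), Afg3l2, a protease known to degrade excess EMRE (53.7 ± 10.3 in cHET and 44.8 ± 8.46 in control; 0.26), and Tmem65 (16.6 ± 0.955 in cHET and 17.9 ± 1.30 in control; -0.11), with limma adjusted p-values of 0.614, 0.667 and 0.692 (SD, n = 4). Slc25a23 was without overlap between groups, with 20.8 FPKM in the lowest cHET library and 20.4 in the highest control library. In this list 1 of the 16 tested genes was without overlap, against 4.74% of all genes. Without control 2 the log2 fold changes were 0.11 for Slc25a23 and 0.14 for Afg3l2, and without control 1 and control 2 they were 0.095 for Slc25a23, 0.039 for Afg3l2 and -0.17 for Tmem65.

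Partners of VDAC and genes of contacts with the endoplasmic reticulum numbered 27, of which 24 were tested. In this list 15 were above 0 and 9 below (median 0.10), with 0 calls by limma and by voom. At an unadjusted p under 0.05 were 4 of the 24 by each, against 8.95% of all genes by limma. By voom the count over all genes was 1215 of 13029. Ckmt2, the sarcomeric mitochondrial creatine kinase, stood at 208 ± 23.3 FPKM in cHET and 140 ± 36.0 in control (SD, n = 4, log2 fold change 0.59, SE 0.18, limma adjusted p = 0.424). It did not overlap between groups, with 189 FPKM in the lowest cHET library and 187 in the highest control library. Of the 24 genes tested, 2 were without overlap, against 4.74% of all genes. Bcl2, an inhibitor of apoptosis, stood at 2.11 ± 0.356 FPKM in cHET and 1.38 ± 0.273 in control (0.38, limma adjusted p = 0.430) and the VDAC-binding hexokinase Hk1 at 37.7 ± 6.98 FPKM in cHET and 24.8 ± 8.06 in control (0.62, limma adjusted p = 0.486). None of these passed over all genes. Without control 1 and control 2 the log2 fold changes were 0.36 for Ckmt2, 0.26 for Bcl2 and 0.22 for Hk1.

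A list of calcium-responsive mitochondrial enzymes held dehydrogenase subunits and their regulators, and also Gpd2 and the carriers Slc25a12 and Slc25a13. Of its 15 genes 10 were above 0 and 5 below (median 0.10), with 0 calls by limma and by voom. At an unadjusted p under 0.05 was 1 gene by each, against 8.95% of all genes by limma. Idh3a, a subunit of isocitrate dehydrogenase, stood at 118 ± 11.1 FPKM in cHET and 99.5 ± 3.20 in control (SD, n = 4; log2 fold change 0.24, limma adjusted p = 0.541) without overlap between groups. Of the 15 genes 1 was without overlap, against 4.74% of all genes. Dlat (0.19, limma adjusted p = 0.707) and Dlst (0.15, limma adjusted p = 0.716), subunits of pyruvate and 2-oxoglutarate dehydrogenase, overlapped. Leaving out control 1 and control 2 gave 0.23 for Idh3a, 0.0033 for Dlat and 0.053 for Dlst, and leaving out cHET 3 gave 0.11 for Dlat and 0.071 for Dlst.

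Other mitochondrial membrane genes are given for comparison. Outer membrane genes had 6 of 17 tested genes above 0 and 11 below (median -0.044), and nuclear complex I subunits 5 of 36 above and 31 below (median -0.14), with 0 calls in both lists by limma and by voom, adjusted or at an unadjusted p under 0.05. Of the outer membrane genes, Mtx1 (-0.29), Tomm40 (0.27), a pore of protein import, and Fis1 (-0.29) had the smallest p, with limma adjusted p-values of 0.592, 0.619 and 0.651. Of complex I these were Ndufa2 (-0.31), Ndufa3 (-0.32) and Ndufb2 (-0.21), with limma adjusted p-values of 0.668. Without control 1 and control 2, the log2 fold changes were 0.042 for Fis1, 0.058 for Ndufa2, 0.083 for Ndufa3, 0.034 for Ndufb2, -0.078 for Mtx1 and 0.28 for Tomm40. Mtx1 was at -0.15 without control 2 alone. The difference between these lists and the uniporter and VDAC genes was not tested.

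Among 11314 other protein-coding genes, those most alike to each transcript over the 8 libraries were sought by Pearson's r of log2(FPKM + 1), as a description in which the points share library, scale and depth and in which the highest of many values is taken. Mcu was most like Atg3 (r = 0.970), Glis2 (0.961) and Arpc5 (0.957), and those values were 0.921, 0.866 and 0.856 without control 1 and 2. Smdt1 was most like D030056L22Rik (0.960), Cenpq (0.927) and Park7 (0.915), and those values were 0.868, 0.800 and 0.969 after TPM scaling. Micu2 was most like Cog7 (0.979), Tmlhe (0.970) and Chmp4c (0.948), with values of 0.982, 0.971 and 0.957 over the 6 libraries without control 1 and 2. Micu3 was most like Gkn3 (0.982), Cytl1 (0.977) and Plpp5 (0.976), and those values were 0.944, 0.861 and 0.842 without control 1 and 2. Letm1 was most like Rad23b (0.990), Mthfd1l (0.989) and Fgf18 (0.987). Vdac1 was most like Smc3 (0.975), Thada (0.964) and Aggf1 (0.964), and Vdac2 like Emc6 (0.983), Cacybp (0.964) and Mrpl38 (0.959). Vdac3 was most like Zfp692, Ndufc2 and Rpl21 (0.990 each), but after TPM scaling these values were 0.466, 0.331 and 0.260.

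Markers of other cells in the heart varied between libraries. Summed over each list, red cell markers came to 1596 to 2542 FPKM in cHET and 1023 to 8415 in control libraries. Fibroblast markers came to 466.7 to 757 FPKM in cHET and 511 to 761 in control, and endothelial markers to 275 to 298 in cHET and 277 to 334 in control. Leukocyte markers, which included macrophage genes, came to 60.5 to 94.9 FPKM in cHET and 79.4 to 167 in control. Atrial markers came to 242 to 5302 FPKM in cHET and 1484 to 5155 in control. The lowest was cHET 3, and the other cHET libraries came to 3446 or more. Whether the libraries held equal parts of the atria was not tested. Skeletal muscle markers came to 421 to 552 FPKM in cHET and 378 to 437 in control. Of these, Acta1 stood at 123 ± 32.7 FPKM in cHET and 49.1 ± 22.2 in control (SD, n = 4, log2 fold change 1.41, limma adjusted p = 0.345). The other tested markers of this list were Ckm, with a log2 fold change of -0.0014, Mylpf (-0.085) and Tnnt3 (0.40). The rest of the list was too low to be tested. Whether cHET libraries held more skeletal muscle was not tested. Of the tested markers, 7 of 7 leukocyte genes (median log2 fold change -0.50), 8 of 8 fibroblast genes (-0.18), 5 of 5 atrial genes (-0.99), 6 of 8 endothelial genes (-0.21), 4 of 6 red cell genes (-0.21), 7 of 10 cardiomyocyte genes (-0.18), 2 of 5 brown fat genes (0.014) and 2 of 4 skeletal muscle genes (0.20) were below 0. Of these lists, 4 leukocyte, 3 endothelial, 1 cardiomyocyte and 1 skeletal muscle genes were at an unadjusted limma p under 0.05. The share over all genes was 8.95%, and 0 genes of these lists were called. The highest gene of each list was Hbb-bs for red cells, Col3a1 for fibroblasts, Eng for endothelium, Lyz2 for leukocytes, Ckm, which heart also expresses, for skeletal muscle and Myl7 for atria. All members of these lists were above 0 in at least 1 library except the skeletal muscle regulator Myod1. The part of these cells in the values of the uniporter and VDAC genes was not tested.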

How the data were processed

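Poly-A RNA of 8 hearts was sequenced, per the labels' protocols. The deposited table gives FPKM for every gene in each library: reads divided by the length of the gene and by a total for the library. This total was not the sum of the rebuilt reads. It was 0.968 times that sum in control 1 and control 2, and 0.994 to 1.04 times in the other libraries. Deposited gene lengths, a unit of their own, were also used. HISAT2 2.0.5, featureCounts 1.5.0-p3, DESeq2 1.20.0 and build mm9 are named in the submitters' processing notes, with no roles. The coordinates of 98.3% of 54495 shared identifiers, and of all 8 genes described, equal those of GENCODE M21, so positions are given on GRCm38. To rebuild reads, the products of FPKM and length were divided by a factor fitted in each library. After this division 100% of the values above 0 were whole numbers of reads (within 0.05 reads).

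The test was limma (version 3.58.1, R version 4.3.3; trend, robust, two-sided, no covariate) of log2(FPKM + 1) over 13029 genes with a mean of at least 1 FPKM, with Benjamini-Hochberg adjustment over all of them and a threshold of 0.05. Steps were tested on simulated counts. Replicate numbers were not used as pairs in the main test. The members and lists were chosen with earlier results of these data known. Named are all members, and of each other list the genes past the test or else the 3 with the smallest p. The 3 genes most alike to each member and the highest gene of each marker list are also named. Other genes (Ucp1, Adipoq, Acta1, Mylpf, Tnnt3, Pheta2, Vdac3-ps1, Mcub, Myod1) were named after their values were seen. Transcripts are from GENCODE M21 and start regions from RefSeq. Alternatives were other pseudocounts, filters, scalings, variance models, library weights, voom on library totals (chosen after seeing the data), a replicate block, sex as a covariate and libraries left out. Poisson intervals cover counting error only. A result on 1 gene is not reported here.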

Additional observations from a re-analysis of the deposited data

Results flagged for a closer look

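In groups of 4 libraries, 5 values stood far from the other 3 by Dixon's criterion, out of 86 groups checked, and chance flags about 1 in 20 groups. Mcu was 2.81 FPKM in control 1, against 3.71 to 3.83 in the other control libraries. Slc25a23 was 14.3 FPKM in control 2, against 19.8 to 20.4 in the others of its group. Tmem65 was 18.0003 FPKM in cHET 3, against 16.0 to 16.2 in the other cHET libraries. Among the marker genes, Col3a1 was 148 FPKM in control 1, against 211 to 223 in the other control libraries, and Ckm was 300.0 FPKM in control 2, against 375 to 388.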

How the results depend on the processing

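Of 20 alternatives, 6 of the 8 genes were tested in all and Mcu and Micu3 in 19, since both fall below a mean of 5 FPKM. In these 158 tests 0 genes of the 8 were called, and 152 fold changes kept their direction. Unadjusted p-values under 0.05 came up in 3 alternatives for Micu2 and 1 for Letm1. The exceptions were Micu3 (0.011) and Vdac1 (-0.00047) without control 1 and 2, and Vdac3 with TPM scaling (0.062), with library weights (0.067), without control 1 and 2 (0.14) and without control 2 (0.046, in a range of -0.10 to 0.046 with single libraries left out); the cause was not tested. The lowest limma adjusted p was 0.343, for Micu2 with library weights. The median of the 8 was 0.088, 0.19 with TPM scaling, where that of all genes was 0.10, and 0.044 to 0.097 with single libraries left out. Over all genes, 3 higher and 0 lower calls became 1 and 0 at a mean of at least 5 FPKM and 8 and 3 with library weights, and single libraries left out gave 2 to 3 higher and 0 lower. Correlations of same-numbered libraries were 0.286, 0.266, 0.052 and 0.057. For control 1, 2 and 3 the same-numbered cHET library had the highest correlation, and for control 4 it was cHET 3 (0.344). These values do not settle whether replicate numbers pair the libraries. A replicate block gave 1 higher and 0 lower call and 0 of the 8. It put 1747 genes at an unadjusted limma p under 0.05, against 1166 in the main fit. Of 339 fold changes of 17 other named genes, 334 kept their direction. Fis1 (0.042), Ndufa2 (0.058), Ndufa3 (0.083) and Ndufb2 (0.034) turned without control 1 and 2, and Mrps5 ran from -0.30 to 0.041 with single libraries left out, above 0 without control 1. Ratios depend on length. Reads not divided by length gave a mean Smdt1 to Mcu ratio of 5.18 in place of 24.3, a Micu2 to Mcu ratio of 3.23 in place of 7.25, and VDAC shares of 45.3, 38.6 and 16.0% for Vdac1, Vdac2 and Vdac3 in place of 60.9, 28.6 and 10.5%. The longest coding transcript, chosen after seeing the data, gave a Micu2 to Mcu ratio of 3.98 and shares of 41.9, 37.0 and 21.1%. Without control 1 and 2 the difference, cHET minus control, was 1.45 for the Smdt1 to Mcu ratio in place of -0.870, -0.0043 for the Micu3 to Mcu ratio in place of -0.158, and -3.28, 2.83 and 0.444 percentage points for the 3 shares in place of 0.550, 0.398 and -0.948. With single libraries left out these differences ran from -2.36 to 1.16 (Smdt1 to Mcu), -1.95 to -0.811 (Micu2 to Mcu), -0.212 to -0.0789 (Micu3 to Mcu), -1.27 to 1.84 (Vdac1), -0.435 to 1.59 (Vdac2) and -1.42 to -0.323 points (Vdac3). Depth limits Mcub and Micu3 most. The planned voom fit with TMM was not run, since the deposited values are FPKM; voom on library totals was added after seeing the data and gave 3 higher and 0 lower calls.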
